A study of Rattus norvegicus with 6 samples.

Results

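The 9 genes described here mark the bone, cartilage and fat lineages into which mesenchymal stem cells can differentiate. For bone they are Runx2 (ENSRNOG00000020193), Spp1 (ENSRNOG00000043451) and Bglap (ENSRNOG00000019607), and for cartilage Sox9 (ENSRNOG00000002607). The fat genes are Pparg (ENSRNOG00000008839), Fabp4 (ENSRNOG00000010805) and Lpl (ENSRNOG00000012181), and Bmp2 (ENSRNOG00000021276) and Bmp4 (ENSRNOG00000009694) are secreted factors. The members were chosen by gene name as 9 of the 32883 Ensembl gene identifiers in the files, with earlier results of these data known, and 8 of them passed the filter on low counts. The data are RNA sequencing read counts of rBMSCs, primary mesenchymal stem cells from the bone marrow of the Lewis rat, after 4 days of culture. There were 3 libraries of cells grown in 3D Nichoids, scaffolds of stacked polymer grids that cells can enter, and 3 of cells grown on 2D Nichoids, which carry 1 layer of that grid and served as the flat control. All cultures received the same serum-containing medium, in which no inducer of bone, cartilage or fat is named, and the number of rats behind the libraries is not given in the sources used here. The p values therefore rest on differences between these libraries, whose spread may be technical. The edgeR test used below also draws the spread of each gene toward that of all tested genes. It had 39.5 degrees of freedom for the tested members. An edgeR p value is thus not set by the spread of a member's own libraries alone. Total counts were 38747857 to 41860684 in the 3D and 38353363 to 39112286 in the 2D libraries, and marker genes of the labelled cell type were not analysed here.

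Lineage choice in mesenchymal stem cells is commonly described by a few master transcription factors. RUNX2 directs the osteoblast lineage and is known to bind regulatory sequences of Bglap and Spp1, which encode proteins of the bone matrix. SOX9 directs the cartilage lineage. PPARG, a nuclear receptor that works as a partner of RXR, directs fat cell formation, and Fabp4 and Lpl are among its known target genes. BMP2 and BMP4 are closely related ligands of the bone morphogenetic protein family. Both are secreted, bind the same receptors and can promote bone, cartilage or fat formation depending on the setting.

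RefSeq promoters of build GRCr8 were found for 5 of the 9 members (Runx2, Bglap, Spp1, Bmp4 and Pparg), with 2 separate starts each for Runx2 and Pparg. The 250 bases before the start are given for Bglap, Spp1 and the first listed start of Runx2. RUNX2 is known to act on these genes. Both starts of Pparg are given too, because the deposited counts are per gene and do not tell its starts apart. The counts of Runx2 likewise do not tell its starts apart. Its second window, with 70.0% G and C and without AACCACA, is not printed. Capitals mark the letters AACCACA, a sequence that RUNX proteins bind, and TATAAA. The counts were made on another build, so these coordinates serve only to place the sequences.
Bglap (chr2:176137319-176137568, minus strand): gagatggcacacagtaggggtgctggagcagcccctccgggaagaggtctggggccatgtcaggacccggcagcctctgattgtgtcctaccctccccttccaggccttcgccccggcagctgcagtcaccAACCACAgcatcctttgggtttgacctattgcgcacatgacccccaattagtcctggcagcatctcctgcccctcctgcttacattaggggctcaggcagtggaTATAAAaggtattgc
Spp1 (chr14:5619805-5620054, minus strand): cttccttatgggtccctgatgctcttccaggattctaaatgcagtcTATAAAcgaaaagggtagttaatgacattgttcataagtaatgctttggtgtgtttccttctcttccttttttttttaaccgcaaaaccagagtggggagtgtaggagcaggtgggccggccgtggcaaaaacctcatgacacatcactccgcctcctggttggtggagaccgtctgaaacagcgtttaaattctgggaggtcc
Runx2, first start (chr9:23664808-23665057, plus strand): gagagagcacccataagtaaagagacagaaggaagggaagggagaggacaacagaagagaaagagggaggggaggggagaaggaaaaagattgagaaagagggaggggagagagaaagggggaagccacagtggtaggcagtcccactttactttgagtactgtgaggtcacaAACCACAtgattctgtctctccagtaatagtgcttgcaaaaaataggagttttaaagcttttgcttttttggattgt
Pparg, first start (chr4:150096808-150097057, plus strand): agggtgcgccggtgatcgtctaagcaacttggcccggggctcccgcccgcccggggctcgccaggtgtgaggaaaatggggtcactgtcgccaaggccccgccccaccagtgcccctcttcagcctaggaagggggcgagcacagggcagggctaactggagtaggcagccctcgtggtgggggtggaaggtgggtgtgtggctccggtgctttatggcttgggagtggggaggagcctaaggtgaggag
Pparg, second start (chr4:150154522-150154771, plus strand): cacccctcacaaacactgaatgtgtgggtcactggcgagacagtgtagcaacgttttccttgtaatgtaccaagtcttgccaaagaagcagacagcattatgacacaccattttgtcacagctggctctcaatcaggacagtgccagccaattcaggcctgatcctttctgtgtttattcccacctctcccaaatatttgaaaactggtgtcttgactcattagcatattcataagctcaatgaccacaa

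AACCACA, searched on both strands, occurred 119 to 113 bases before the start of Bglap and 77 to 71 bases before the first start of Runx2. AACCACA occurred in 4.59% of the 33469 promoter windows of that length. Only these exact letters were searched. Forms that differ in a base, such as aaccgca for Spp1 and gaccaca for the second start of Pparg, were not. A window without AACCACA may therefore still hold a sequence that RUNX proteins bind. TATAAA lay 15 to 10 bases before the start of Bglap and 204 to 199 bases before that of Spp1, and 12.9% of windows held it. The PPAR-RXR sequence, AGGTCA repeated after 1 base, occurred in none of the 7 windows of members, against 0.0508% of all windows. Its single part AGGTCA, present in 14.1% of windows, was found for Bglap and for the first start of Runx2. GGGCGG, present in 30.5% of windows, was found for Bmp4, for the first start of Pparg and for the second start of Runx2, and CCAAT, present in 34.0%, for Bglap and for the second start of Pparg. The starts of Pparg differed in base composition, with 67.2% G and C in the first window and 44.8% in the second. These matches describe the letters in the windows and not the binding of a factor.

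All 8 members that passed the filter passed an adjusted p value of 0.05 between 3D and 2D Nichoids, against 37.8% of the 13523 genes tested (edgeR quasi-likelihood test). The 3 fat genes, Sox9 and Bmp4 were higher in 3D Nichoids, 5 members where 18.9% of all tested genes were higher. Runx2, Spp1 and Bmp2 were lower, 3 members where 18.8% of all tested genes were lower. With the cutoff of an absolute log2(FC) above 1 added, which is how the study defined a differentially expressed gene (DEG), 3 members remained, Fabp4, Bmp4 and Pparg, all higher in 3D Nichoids. DEGs made up 3.42% of all tested genes in this edgeR fit, with 2.06% upregulated and 1.37% downregulated. The study called its DEGs with another test, DESeq2, so these shares are not those of its list. In 7 of the 8 members the libraries of the groups did not overlap, which held for 46.9% of all tested genes. The median absolute log2(FC) was 0.56 over the 8 members and 0.21 over all tested genes, and no test of the list was made because the genes were chosen with earlier results known. Since whole cultures were measured, a change in the number of cells of a type and a change in RNA per cell cannot be told apart.

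**Figure D1:**
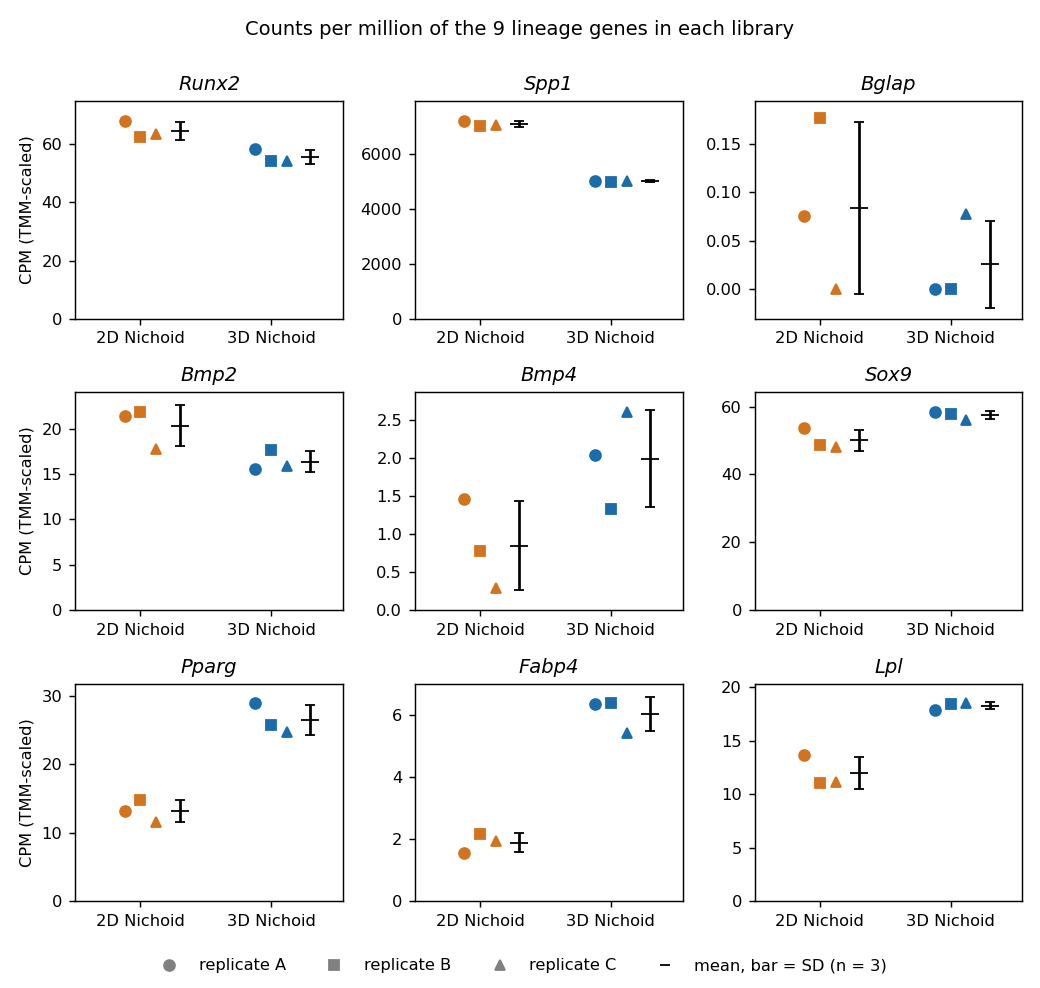
Level in CPM (counts per 1000000 of the TMM-scaled total) of each lineage gene in every library, with 2D Nichoids in orange and 3D Nichoids in blue, the symbol giving the replicate letter and the black bars the mean and SD of 3 libraries. Pparg, Fabp4 and Lpl lie higher in every 3D library than in any 2D library, Spp1 lies lower, and Bmp4 overlaps between the groups.

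Pparg was covered by 1164, 963 and 958 reads in the 3D cultures, given here and further on in the order of replicates A, B and C. The 2D cultures had 521, 590 and 471 reads. Every 3D library thus held more Pparg reads than every 2D library, by a wide gap. As counts per 1000000 of the TMM-scaled library total (CPM), the level was 26.4 ± 2.18 in 3D and 13.2 ± 1.63 in 2D Nichoids (SD, n = 3 each). The increase was 2.00-fold, with a 95% interval from 1.74 to 2.31. Its log2(FC) was 1.003, with an SE of 0.10 (edgeR, adjusted p value 6.26e-11). The value lay just above the log2(FC) cutoff of 1. Without 3D Nichoid replicate A it was 0.93, without 2D Nichoid replicate C it was 0.92, and with total counts as the scaling it was 0.90, so that Pparg was no DEG in those fits, while its adjusted p value stayed under 0.05 in every fit that was run.

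Fabp4, the fatty acid binding protein of fat cells, had the highest log2(FC) of the members when all 6 libraries were fitted. The 95% interval of Bmp4 spanned its value, and without 2D Nichoid replicate A the log2(FC) of Bmp4 was 1.89 and that of Fabp4 1.56. Its reads numbered 256, 239 and 210 in the 3D cultures, against 62, 86 and 79 in the 2D cultures. The lowest 3D library, with 210 reads, stood well above the highest 2D library, with 86. The level was 6.05 ± 0.55 CPM against 1.89 ± 0.31 CPM (SD, n = 3 each). The increase was 3.19-fold (95% interval 2.36 to 4.33) and the log2(FC) 1.68, with an SE of 0.22 (edgeR, adjusted p value 2.97e-08). Of all tested genes, 1.45% had a larger absolute log2(FC). Fabp4 was the only member counted as a DEG in every fit that was run.

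Lpl encodes lipoprotein lipase, the secreted enzyme that frees fatty acids from circulating triglycerides. It had 720, 691 and 716 reads in the 3D cultures and 543, 438 and 452 in the 2D cultures. The groups did not overlap, and replicate A was the highest of the 2D libraries. The level was 18.3 ± 0.34 CPM against 11.9 ± 1.50 CPM (SD, n = 3 each). Lpl increased 1.53-fold (95% interval 1.31 to 1.78). The log2(FC) was 0.61, with an SE of 0.11 (edgeR, adjusted p value 1.70e-05), below the cutoff for a DEG.

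Runx2 went the other way by a small margin. The 3D cultures gave 2348, 2040 and 2101 reads and the 2D cultures 2706, 2480 and 2579. The highest 3D library stayed below the lowest 2D library. The level was 55.6 ± 2.29 CPM against 64.7 ± 3.06 CPM (SD, n = 3 each), 1.16-fold higher in 2D Nichoids (95% interval 1.08 to 1.26). The log2(FC) was -0.22 (SE 0.06, adjusted p value 0.00173, edgeR), and 48.2% of all tested genes had a larger absolute log2(FC). In RefSeq the gene overlaps 2 others, Supt3h and a non-coding RNA gene, and the handling of strand in the counts is not given in the sources used here, so reads of overlapping genes may not be told apart.

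Spp1 encodes osteopontin, a secreted phosphoprotein of bone matrix that many other cell types also make. The 3D cultures gave 203399, 187671 and 195296 reads, and the 2D cultures 287277, 279905 and 286835. No 3D library came near the level of a 2D library. Spp1 ranked 10 among all gene identifiers by mean CPM, so its counting error was small. It took 0.484% to 0.486% of all counts in the 3D Nichoid libraries and 0.730% to 0.748% in the 2D Nichoid libraries, and the exact (Clopper-Pearson) 95% intervals of the extreme libraries ran from 0.482% to 0.488% and from 0.727% to 0.751%. These intervals cover counting error only. The level was 5030.1 ± 21.0 CPM against 7115 ± 107 CPM (SD, n = 3 each), 1.41-fold higher in 2D Nichoids (95% interval 1.39 to 1.44). The log2(FC) was -0.50 (SE 0.01, adjusted p value 2.64e-31, edgeR), the smallest adjusted p value of the 8 members, although the fold was below those of Pparg, Fabp4, Bmp4 and Lpl.

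Bglap encodes osteocalcin, a bone matrix protein of mature osteoblasts. It was covered by 0, 0 and 3 reads in the 3D cultures and by 3, 7 and 0 in the 2D cultures, and was not tested because it did not pass the filter. The gene was at or close to 0 in all libraries. A count of 0 allows up to 3 counts, which is 0.0717 to 0.0782 CPM in these libraries. The 3 counts of the 3D group and the 10 of the 2D group gave a ratio of 0.288 relative to total counts, with an exact 95% interval from 0.0509 to 1.12 for counting error, which includes no difference. When every gene with a count was tested, the adjusted p value was 0.61 (edgeR). A difference in Bglap was therefore not detectable at this depth.

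The BMP ligands moved in opposite directions. Bmp2 had 628, 662 and 615 reads in the 3D cultures and 851, 868 and 720 in the 2D cultures. The groups did not overlap, but 2D Nichoid replicate C lay close to 3D Nichoid replicate B, at 17.7 CPM each. The level was 16.4 ± 1.13 CPM against 20.3 ± 2.28 CPM (SD, n = 3 each), 1.24-fold higher in 2D Nichoids (95% interval 1.08 to 1.43). The log2(FC) was -0.31 (SE 0.10, adjusted p value 0.0130, edgeR). The call was lost in 4 of the 6 fits that left out 1 library, with adjusted p values of 0.0637 without 3D Nichoid replicate A, 0.0645 without 3D Nichoid replicate C, 0.0606 without 2D Nichoid replicate A and 0.0807 without 2D Nichoid replicate B.

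Bmp4 was the least counted of the 8 members, with 82, 50 and 101 reads in the 3D cultures and 58, 31 and 12 in the 2D cultures. It was the only one whose groups overlapped, since 3D Nichoid replicate B lay below 2D Nichoid replicate A. The level was 1.99 ± 0.64 CPM against 0.85 ± 0.59 CPM (SD, n = 3 each), 2.35-fold higher in 3D Nichoids (95% interval 1.28 to 4.32). The log2(FC) was 1.23 (SE 0.43, adjusted p value 0.0217, edgeR). Leaving out 2D Nichoid replicate C, the library with 12 reads, gave a log2(FC) of 0.83 (adjusted p value 0.0870), and leaving out 3D Nichoid replicate C gave 0.99 (adjusted p value 0.177). The call was also lost without 3D Nichoid replicate A and without 2D Nichoid replicate B, with adjusted p values of 0.0619 in both fits, and the log2(FC) was 1.89 without 2D Nichoid replicate A. A non-coding RNA gene overlaps Bmp4 in RefSeq.

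Sox9 encodes the transcription factor of cartilage formation. With TMM and all 6 libraries it had the log2(FC) closest to 0, of about the same size as that of Runx2. It had 2353, 2170 and 2178 reads in the 3D cultures and 2125, 1927 and 1947 in the 2D cultures. The groups did not overlap, but 2D Nichoid replicate A, at 53.5 CPM, came close to the lowest 3D library at 56.2 CPM. The level was 57.5 ± 1.17 CPM against 49.99 ± 3.09 CPM (SD, n = 3 each), 1.15-fold higher in 3D Nichoids (95% interval 1.06 to 1.25). The log2(FC) was 0.20 (SE 0.06, adjusted p value 0.00575, edgeR), and 51.2% of all tested genes had a larger absolute log2(FC). With total counts as the scaling, the log2(FC) of Sox9 was 0.10 and the call was lost (adjusted p value 0.178, edgeR). Under this scaling the median over the 13523 genes moved from -0.01 to -0.11, and the log2(FC) of Runx2 was -0.32.

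**Figure D2:**
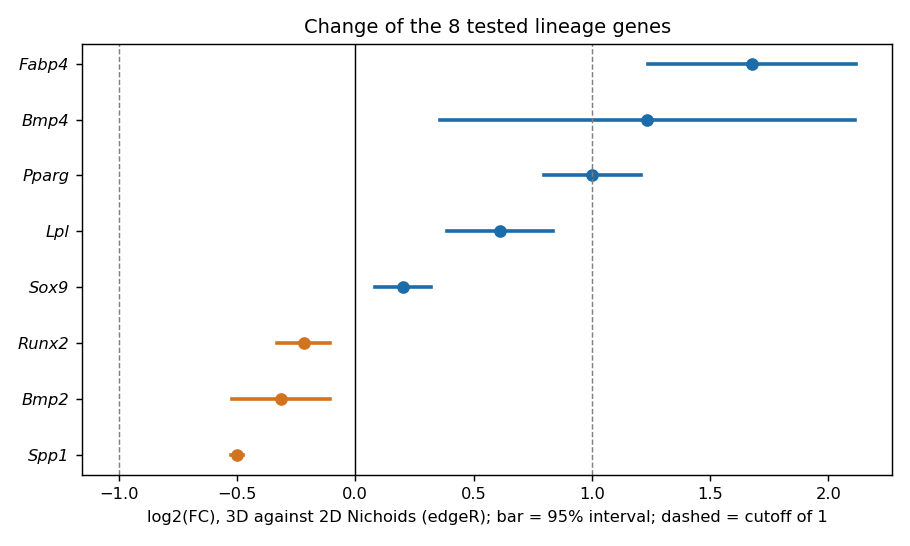
Log2(FC) between 3D and 2D Nichoids for the 8 tested members (points) with 95% intervals (bars) from edgeR, members higher in 3D Nichoids in blue and those lower in orange, and dashed lines at the DEG cutoff of 1 in either direction. Fabp4 at 1.68 and Spp1 at -0.50 are the extremes, the interval of Fabp4 lies wholly above 1, and those of Pparg and Bmp4 cross it.

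**Figure D3:**
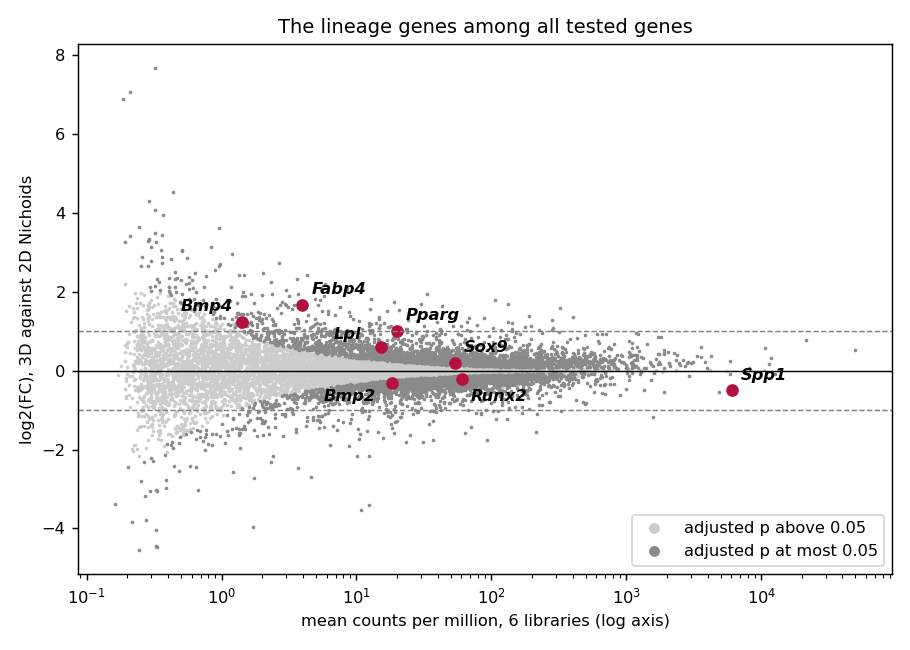
Log2(FC) against mean CPM over the 6 libraries (log axis) for all 13523 tested genes, in dark grey where the adjusted p value was at most 0.05, with the 8 members in red. Spp1 lies among the most counted genes, Bmp4 and Fabp4 lie to the left of the other members at low counts, and Runx2 and Sox9 lie close to 0.

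The spread between replicates differed widely between the members. The coefficient of variation of the CPM was 0.42% in 3D and 1.50% in 2D Nichoids for Spp1, and 4.12% and 4.72% for Runx2. For Bmp4 it was 32.0% and 69.3%, against 11.3% and 17.2% that independent reads at its mean counts would give. Lpl varied by 1.84% in 3D Nichoids, below the 3.76% from counting alone, and by 12.6% in 2D Nichoids. For Pparg the values were 8.27% and 12.4%, and for Fabp4 9.06% and 16.1%. In each of the 8 members the coefficient was higher in 2D than in 3D Nichoids, as it was in 61.0% of the 13520 tested genes with a coefficient in both groups, whose median was 7.86% in 2D and 6.19% in 3D Nichoids. This difference in spread was not tested.

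Ratios between pairs of members within a library do not depend on how libraries are scaled to each other. They were compared between the groups with two-sided exact permutation tests over the libraries, in which p cannot fall under 0.1 at this number of libraries. The ratio levels also carry the lengths of the genes, so only their difference between the groups is read. The Pparg to Runx2 count ratio was 0.496, 0.472 and 0.456 in the 3D cultures and 0.193, 0.238 and 0.183 in the 2D cultures. It was 2.34-fold higher in 3D Nichoids, with no overlap (p = 0.1, exact permutation test, Benjamini-Hochberg adjusted p = 0.1 over 5 planned ratios). The planned Fabp4 to Bglap ratio, given below, was left out of this adjustment. The Pparg to Sox9 ratio was 1.75-fold higher and the Sox9 to Runx2 ratio 1.34-fold higher, again without overlap (p = 0.1 each, exact permutation test). For Sox9 to Runx2 the count ratios were 1.002, 1.06 and 1.04 in the 3D cultures and 0.785, 0.777 and 0.755 in the 2D cultures. The gap between the groups was wider than the range within either group and does not depend on the scaling. The pair sets a member called higher over a member called lower, so it cannot tell which of them changed. With total counts as the scaling, the log2(FC) was 0.10 for Sox9 and -0.32 for Runx2 (edgeR).

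The Bmp4 to Bmp2 ratio was 0.131, 0.0755 and 0.164 in the 3D cultures and 0.0682, 0.0357 and 0.0167 in the 2D cultures. The groups did not overlap, although Bmp4 itself did, but 3D Nichoid replicate B lay close to 2D Nichoid replicate A. The ratio was 3.42-fold higher in 3D Nichoids (p = 0.1, exact permutation test). With 1 library left out, the difference in log2 ratio ranged from 1.25 to 2.27. The p value was 0.2 without 3D Nichoid replicate A, B or C and without 2D Nichoid replicate C (exact permutation test). The Lpl to Spp1 ratio was 2.17-fold higher in 3D Nichoids, without overlap (p = 0.1, exact permutation test). A ratio of Fabp4 to Bglap could not be formed from the counts as they stand, because Bglap had 0 counts in 3 libraries. With 0.5 added to both counts, the groups overlapped (p = 0.2, exact permutation test).

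**Figure D4:**
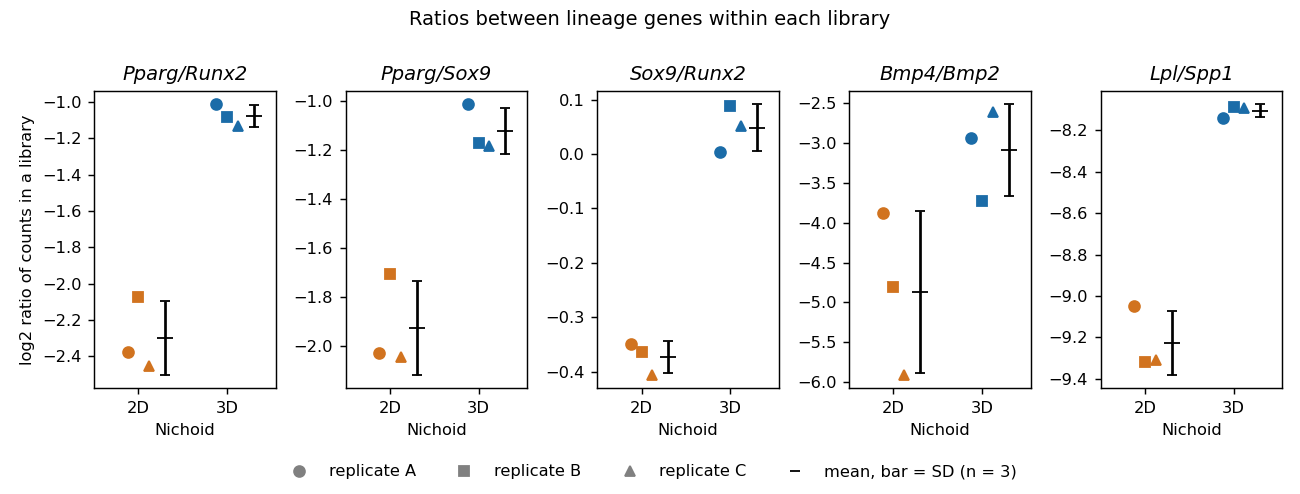
Log2 ratio of the counts of 2 members within each library, for 5 pairs, with 2D Nichoids in orange, 3D Nichoids in blue and black bars for the mean and SD of 3 libraries; each panel has its own axis, which does not start at 0. In all 5 panels every 3D library lies above every 2D library, and Bmp4 to Bmp2 has the widest spread. Except for Pparg to Sox9, each pair sets a member called higher over a member called lower.

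Leaving out 1 library at a time separated the members by whether they kept the call. Over all tested genes 4158 to 5009 were called in these smaller fits, against 5109 with all 6 libraries (edgeR). Spp1, Runx2, Sox9, Pparg, Fabp4 and Lpl kept an adjusted p value of at most 0.05 in all 6 such fits (edgeR), with the highest values at 0.0231 for Runx2 and 0.0308 for Sox9. Bmp2 and Bmp4 each lost the call in 4 of the 6. No member changed direction. The number of members called was 6 to 8, and the number of DEGs among them was 1 to 3.

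**Figure D5:**
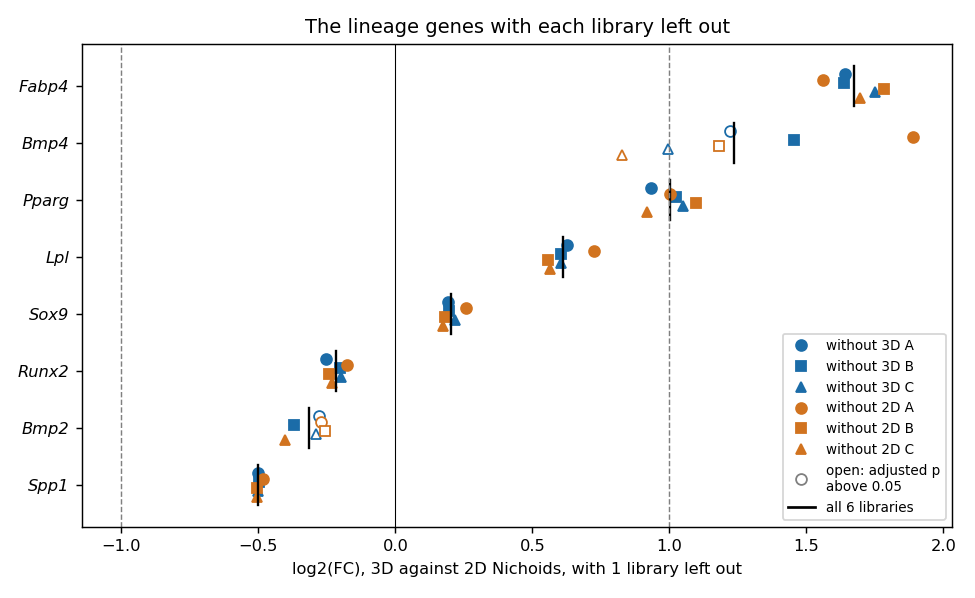
Log2(FC) of the 8 tested members when 1 library was left out, in blue for a 3D and in orange for a 2D Nichoid library, with the symbol giving the replicate, open symbols where the adjusted p value was above 0.05 and black lines for the fit of all 6 libraries. Bmp4 ranges from 0.83 to 1.89 and has open symbols. Bmp2, which ranges from -0.40 to -0.26, also has open symbols, while the other members have filled symbols only.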

How the data were processed

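RNA of rBMSCs from day 4 was sequenced in 3 libraries per group, taken from the labels. The authors deposited read counts per Ensembl gene without normalization, made with STAR 2.7.0a and HTSeq. The submitters' processing notes name Rnor_6.0 and HTSeq 0.12.4, the study's methods a later build and version. Handling of strand, shared reads and PCR copies is not given in the sources used here. Total counts were 38353363 to 41860684 per library.

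Genes were tested in R 4.3.3 with edgeR 4.0.16 (filterByExpr, TMM, robust quasi-likelihood test, no covariates, Benjamini-Hochberg adjustment over 13523 genes). SE was the log2(FC) size divided by the root of F. CPM are counts per 1000000 of the TMM-scaled total. DESeq2 1.42.0, limma 3.58.1, other scalings and filters, a replicate block and each library left out were alternatives. The procedure was tested on simulated data. Figures used Python 3.11.15.

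Members and lists were chosen with earlier results of these data known, and all 9 members are named. Their symbols come from the choice of members, as the files hold identifiers only. The gene table matched 0 identifiers, so 202 further symbols (pathway genes, cell type markers) and genes of like pattern were not analysed here. Promoter sequences are from RefSeq, GRCr8.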

Additional observations from a re-analysis of the deposited data

How the results depend on the processing

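The number of members called stayed at 8, with 3 DEGs among them, under DESeq2, limma-voom, RLE size factors, every gene with a count, at least 10 counts in every library, and the replicate block. With total counts only, 7 members and 2 DEGs were called. That scaling gave 1638 genes higher and 4161 lower in 3D Nichoids among all tested genes, against 2560 and 2549 with TMM, and it ended the call of Sox9 (log2(FC) 0.10). With each library left out, 6 to 8 members and 1 to 3 DEGs among them were called, and 1 DEG remained without 3D Nichoid replicate A or without 2D Nichoid replicate C. The log2(FC) ranged from -0.40 to -0.26 for Bmp2 and from 0.83 to 1.89 for Bmp4 in those fits, with 4 of 6 calls lost in each. These fits hold fewer libraries, and the cause was not tested further. No log2(FC) or ratio reversed in any fit.

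Same-lettered libraries did not deviate together across genes (correlations of 0.01, -0.01 and 0.01 for A, B and C), so no pairing by letter was seen. What the letters stand for is not given in the sources used here, and a shared origin of same-lettered cultures was not tested otherwise. With the replicate block 8 members were called and the log2(FC) of Bmp4 was 1.35. The planned counts for pathway lists were not run because the gene table matched 0 identifiers, Bglap was not tested under the filter, and the Fabp4 to Bglap ratio had zero counts. Depth limits Bglap, which had at most 7 counts in a library.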

Other observations

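Of 4 further ratios within a library, chosen after the values were seen and therefore given without a test, the Fabp4 to Pparg ratio was 0.220, 0.248 and 0.219 in the 3D cultures and 0.119, 0.146 and 0.168 in the 2D cultures, 1.60-fold higher in 3D Nichoids on average and without overlap. The Lpl to Pparg ratio was 0.619, 0.718 and 0.747 in the 3D cultures and 1.04, 0.742 and 0.960 in the 2D cultures. It was 1.31-fold higher in 2D Nichoids on average, and the groups overlapped. The Spp1 to Runx2 ratio was 1.22-fold higher in 2D Nichoids, from 106 to 113 there and from 86.6 to 93.0 in 3D Nichoids, without overlap. The Bmp2 to Runx2 ratio overlapped between the groups, at 0.267 to 0.325 in the 3D cultures and 0.279 to 0.350 in the 2D cultures.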
